A study of Mus musculus with 94 samples.

Results

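The complement genes *C1ra*, *C1rb*, *C1s*, *Serping1*, *C3*, *C4b* and *Cd55* were examined in single cells from the fat around the mouse aorta. Of the 7 listed genes, 6 had a row of that name among the 16069 genes of the deposited table and are called members here. RefSeq gives C1s as a synonym of *C1s1*, so the row of *C1s1* is described beside the members but is not counted among them. The rule that picks the genes uses their names and none of their values.

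The cells, which the study names mesenchymal stem cells of perivascular fat (PV-ADSCs), came from the stromal vascular fraction of peri-aorta adipose tissue of c57/bl mice aged 8 weeks. They were released with collagenase I, sorted as CD144-/CD45-/CD29+/Sca1+ cells and sequenced without culture by a full-length cDNA protocol (SMARTseq v4), with 1 library per cell. Of the 94 cells of the series, 85 were in the table and the other 9 were not analysed here. All cells carried the same strain, age and gate, no animal was named for any cell and animals may have been pooled, so the cells were taken as 1 sample, and groups of cells are described without p values.

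Complement is a cascade of plasma and tissue proteins that labels and lyses targets. In its classical pathway the protease C1r, held with C1s on the recognition protein C1q, activates C1s, which cuts C4 and C2, and the resulting convertase cuts C3, on which all pathways meet. The C1 inhibitor, encoded by *Serping1*, blocks C1r and C1s, whereas CD55, a membrane protein also called decay-accelerating factor, takes the C3 convertases apart on the cell that carries it. The liver is the main source of plasma complement, and fibroblasts and other stromal cells are known to make several components locally. CD55 is also a known surface marker of interstitial progenitor cells of fat.

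Stromal cells were cells with a deposited value of at least 1000 for *Dcn*, which encodes the matrix proteoglycan decorin. There were 58 stromal cells and 27 other cells. The *Dcn* value was 6521 to 365531 in stromal cells (median 93093) and 5.17 to 269 in other cells (median 21.2), so no cell lay between 269 and 6521. Of 9 other stromal markers, a median of 8 reached 100 reads in stromal cells and a median of 0 in other cells. Of 12 endothelial markers, at least 3 reached 100 reads in 24 of the 27 other cells, although the gate removed CD144-positive cells, and in 1 stromal cell. Of the leukocyte markers with a row, *Cd68*, *Csf1r*, *Tyrobp* and *Cd74*, the summed reads were 0 to 958 in stromal cells and 0 in every other cell. The summed reads of 6 mesothelial markers were 0 to 16264 in stromal cells (median 0) and 0 in every other cell. Those of 6 mural markers were 0 to 3410 in stromal cells and 0 to 3914 in other cells (median 0 in both). Of the mesothelial markers, *Wt1* was above 0 in 20 of 58 stromal cells and each of the others in at most 3.

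The deposited values had the form of read counts scaled with a factor for each cell and each of 13 groups of genes. This is read from the values and not stated by the authors. Values of 10665 of the 16069 genes were whole numbers and were taken as reads without a factor. The factors could be found from the values, and dividing by them gave whole reads, called recovered reads below. Recovered reads ranged from 1040775 to 4776510 per cell, with medians of 2963854 in stromal and 2714449 in other cells. The number of genes above 0 differed more, with medians of 2813 and 1416. The stromal cell with the lowest *Dcn* value stood apart: it held 69 *Dcn* reads multiplied by a factor of 94.5, 850 genes above 0, 0 of the 9 other stromal markers at 100 reads and the lowest total, which is uncertain because some of its factors were not found. Its 69 *Dcn* reads lie within the 4 to 248 *Dcn* reads of the other cells, so its place among stromal cells rests on its factor. It held reads of 1 member (*C3*, 8 reads). Results without this cell are given for *C3*, the number of members per cell and the factors of *Serping1*.

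All 6 members were above 0 in a larger share of stromal than of other cells, by at least 30 percentage points in 6 of 6. The same held for 13.9% of the 11478 genes above 0 in at least 3 cells, and for 64.8% of the 1305 genes above 0 in at least 40 cells. The mean value was at least 4 times as high in stromal cells for 6 of 6 members, compared with 47.8% of the 11478 genes. The median difference in share was 79.3 points over the members and 9.32 points over all genes tested. The median difference in mean log2(value + 1) was 7.22 over the members and 0.64 over all genes tested. At a level of 10 recovered reads, each member and *C1s1* was found in 0 of 27 other cells, which allows a share of up to 11.1% of such cells when 3 cells of the total are taken as the limit (the exact interval reaches 12.8%). Shares carry exact Clopper-Pearson 95% intervals, which cover counting error only, as does this limit. Absence from other cells was common, since 3328 of the 11478 genes tested were at 0 in every other cell. How many of all genes stayed below 10 reads in every other cell was not counted.

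**Figure D1:**
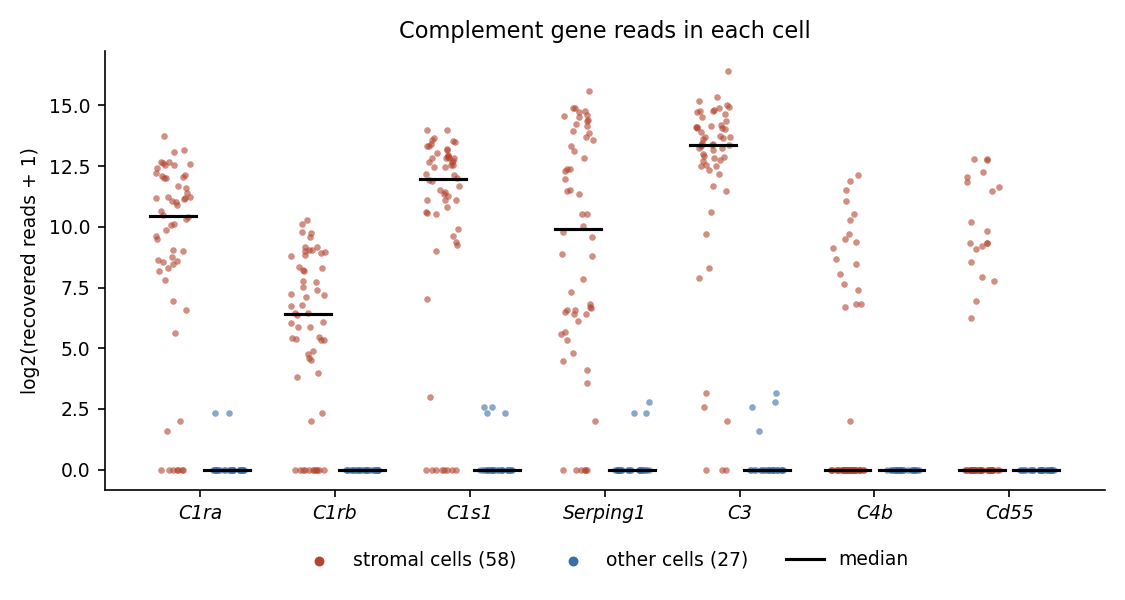
Recovered reads of the 6 members and *C1s1* in each cell, as log2(reads + 1), with 58 stromal cells in red, 27 other cells in blue and a black line at the median of each group. No blue point exceeds 8 reads, whereas the stromal median of *C3* is 10538 reads and those of *C4b* and *Cd55* are 0.

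The C1 proteases were described first. *C1ra*, which encodes C1r, was above 0 in 51 of 58 stromal cells (87.9%, interval 76.7% to 95.01%). Its recovered reads there ran from 0 to 13729 with a median of 1390.5, and 47 stromal cells held at least 100 reads. In other cells 2 of 27 were above 0 (7.41%, interval 0.910% to 24.3%), with 4 reads each. The stromal and other cells overlapped only at these low counts and at 0, since 49 stromal cells lay above the highest value of any other cell. The mean of log2(value + 1) was 8.97 ± 4.04 (SD, n = 58 cells) in stromal and 0.23 ± 0.83 (SD, n = 27 cells) in other cells.

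*C1rb*, a second mouse gene for C1r, was above 0 in 47 of 58 stromal cells (81.03%, interval 68.6% to 90.1%) and in 0 of 27 other cells. Its reads in stromal cells ran from 0 to 1254 with a median of 84, and 27 stromal cells held at least 100 reads. *C1rb* thus reached most stromal cells at lower counts than *C1ra*. Its values were whole numbers with no scaling factor. Stromal cells had a mean log2(value + 1) of 5.69 ± 3.33 (SD, n = 58 cells).

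*C1s1*, which encodes the protease C1s that C1r activates, was above 0 in 50 of 58 stromal cells (86.2%, interval 74.6% to 93.9%). Its stromal reads ran from 0 to 16285 with a median of 3978.5. In other cells 4 of 27 were above 0 (14.8%, interval 4.19% to 33.7%), with at most 5 reads. Stromal cells were either high or near 0 for this gene: 49 held at least 100 reads, 1 held 7 and 8 held none. Its near copy *C1s2* is 96.1% identical over the aligned part of the longest transcripts, and 24.3% of the 50-base windows of *C1s1* occur in it. The mean of log2(value + 1) was 10.09 ± 4.43 (SD, n = 58 cells) in stromal and 0.38 ± 0.93 (SD, n = 27 cells) in other cells.

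*C1ra* and *C1rb* are near copies. Their longest annotated transcripts were 98.1% identical over 2427 aligned bases, and 48.02% of the 50-base windows of *C1ra* occurred unchanged in *C1rb*. The program that counted reads is not given in the sources used here, so how reads shared by such copies were assigned is unknown, and the split between the 2 genes is uncertain. In 46 stromal cells both genes were above 0, in 5 only *C1ra* (3 to 1892 reads), in 1 only *C1rb* (452 reads) and in 6 neither. Over the 43 stromal cells with at least 10 reads of each gene, the ratio of *C1ra* to *C1rb* reads ran from 0.338 to 178 with a median of 9.82. More reads of *C1rb* than of *C1ra* were found in 3 stromal cells. The ratio was therefore far from constant from cell to cell.

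**Figure D2:**
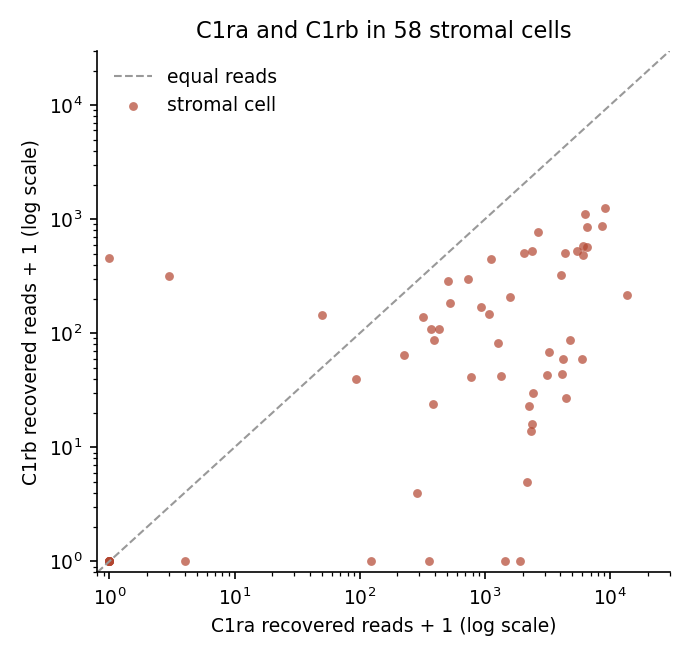
Recovered reads of *C1ra* (horizontal) and *C1rb* (vertical) plus 1 in each of 58 stromal cells, on log axes, with a dashed line at equal reads. Most points lie below the line, 3 lie above it, and cells with similar *C1ra* reads differ widely in *C1rb* reads.

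The starts of both genes are shown because the 2 genes varied together and their sequences match there. The RefSeq windows of 250 bases before to 50 bases after the start site (build GRCm38.p6, which is not the mm9 build of the files) lie on the plus strand at chr6:124512371-124512670 for *C1ra* and chr6:124570180-124570479 for *C1rb*. The *C1s1* window lies between them on the minus strand, and the stretch from the *C1ra* to the *C1rb* window spans 58109 bases. Capitals mark bases that are identical in the local alignment of the 2 windows.
C1ra: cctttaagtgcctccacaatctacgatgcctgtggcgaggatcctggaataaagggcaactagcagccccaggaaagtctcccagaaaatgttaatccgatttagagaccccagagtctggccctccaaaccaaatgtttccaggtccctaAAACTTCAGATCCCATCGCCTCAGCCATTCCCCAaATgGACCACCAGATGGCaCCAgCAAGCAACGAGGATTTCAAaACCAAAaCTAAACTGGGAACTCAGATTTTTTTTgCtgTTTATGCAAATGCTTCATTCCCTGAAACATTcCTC
C1rb: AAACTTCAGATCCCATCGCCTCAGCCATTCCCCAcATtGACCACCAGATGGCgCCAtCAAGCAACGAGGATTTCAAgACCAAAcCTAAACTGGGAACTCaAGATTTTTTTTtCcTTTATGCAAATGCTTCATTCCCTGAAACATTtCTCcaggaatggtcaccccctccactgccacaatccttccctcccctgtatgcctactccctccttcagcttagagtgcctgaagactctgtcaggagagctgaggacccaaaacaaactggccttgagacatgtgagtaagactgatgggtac
The alignment covered 148 bases, of which 139 were identical (93.9%), with 2 gap positions. It ran from position -99 to 50 of the *C1ra* window and from -250 to -102 of the *C1rb* window, counted from the annotated start sites, so the matching sequence lies across the start of *C1ra* and upstream of the annotated start of *C1rb*.

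*Serping1*, the gene of the C1 inhibitor, was above 0 in 52 of 58 stromal cells (89.7%, interval 78.8% to 96.1%). Its stromal reads ran from 0 to 48642 with a median of 972 and quartiles of 71.75 and 13013, the widest spread between quartiles, as a ratio, of the members with a stromal median above 0. In other cells 3 of 27 were above 0 (11.1%, interval 2.35% to 29.2%), with at most 6 reads. Stromal cells thus differed widely in *Serping1*, as 51 held at least 10 reads and 38 at least 100. The mean of log2(value + 1) was 9.19 ± 4.79 (SD, n = 58 cells) in stromal and 0.41 ± 1.27 (SD, n = 27 cells) in other cells. The scaling factor of its gene group ran from 0.0409 to 75.5 over stromal cells (to 36.9 without the cell of lowest *Dcn*), so its deposited values are less comparable between cells than its reads. Spearman's rho between its deposited values and its reads was 0.91 over stromal cells.

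*Serping1* also moved with the number of genes per cell. It was above 0 in 29 of the 29 stromal cells with at least the median number of genes and in 23 of the 29 with fewer, with median reads of 5340 and 102. Spearman's rho with the number of genes was 0.38 over the 58 stromal cells, with the total reads -0.04 and with *Dcn* 0.28. For the other members rho with the number of genes lay between -0.02 and 0.24. What part the number of genes has in the spread of *Serping1* was not tested.

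*C3*, the central component, was above 0 in 55 of 58 stromal cells (94.8%, interval 85.6% to 98.9%), the largest share of any member. Its stromal reads ran from 0 to 88012 with a median of 10538. In other cells 4 of 27 were above 0 (14.8%, interval 4.19% to 33.7%), with 2 to 8 reads. In 52 stromal cells there were at least 100 reads of *C3*, and in 3 there were none. The mean of log2(value + 1) was 12.12 ± 3.96 (SD, n = 58 cells) in stromal and 0.40 ± 1.01 (SD, n = 27 cells) in other cells. Without the cell of lowest *Dcn* the stromal share was 94.7% and the mean 12.19 ± 3.95 (SD, n = 57 cells).

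The window around the start of *C3* is shown because *C3* was the member found in most cells. It lies on the minus strand at chr17:57228087-57228386 (RefSeq, GRCm38.p6). Capitals mark matches to the motifs described after it.
C3: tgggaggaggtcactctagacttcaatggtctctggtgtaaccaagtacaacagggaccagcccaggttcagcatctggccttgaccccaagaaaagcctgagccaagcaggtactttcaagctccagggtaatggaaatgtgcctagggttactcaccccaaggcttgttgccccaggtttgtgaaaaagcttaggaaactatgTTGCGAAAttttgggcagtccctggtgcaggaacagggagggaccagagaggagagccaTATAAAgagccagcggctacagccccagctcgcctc
Searched on both strands were 5 motifs: TTCNNNGAA for GAS, bound by STAT proteins, GAAANNGAA for the ISRE of interferon response, GGANNTTCC for NF-kB, TTNNGCAA for C/EBP, and the box TATAAA. Their matches did not overlap in the windows of these genes. In the *C3* window the C/EBP letters matched from position -45, on the strand opposite to the one shown. The letters TATAAA matched from position 15, after the annotated start. The C/EBP letters also occurred in the *C1ra* window (TTATGCAA from position 17) and the *C1rb* window (TTATGCAA from position -135). Both matches lie within the stretch that these windows share, so they are not independent. The C/EBP letters occurred as well in 1 of the *C1s1* windows (TTAGGCAA from position -242), and 10.8% of all 32851 windows hold them. The GAS letters occurred in the *C1ra* window (TTCCCTGAA from position 33) and the *C1rb* window (from -119), within the stretch that both windows share, compared with 8.30% of all windows. The NF-kB letters occurred in both *C1s1* windows (GGAGCTTCC, from -12 and from -50, at the same bases of the genome) and in 4.26% of all windows, the box TATAAA in 13.6% and the ISRE letters in 8.56%. No match of the 5 motifs was found in the *Cd55* window. Windows of *Serping1* and *C4b* were not used here. A match of letters is a description and not a site.

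*C4b*, which encodes C4, the substrate of C1s, was above 0 in 19 of 58 stromal cells (32.8%, interval 21.01% to 46.3%) and in 0 of 27 other cells. Its stromal reads ran from 0 to 4453 with a median of 0. Among the 19 positive cells the median was 554 reads, and 18 of them held at least 100 reads. *C4b* therefore marked a minority of stromal cells, most of which held it at clear counts. Stromal cells had a mean log2(value + 1) of 2.86 ± 4.35 (SD, n = 58 cells). *C4b* is 96.2% identical to *C4a* over their longest transcripts, and 35.2% of its 50-base windows occur in *C4a*, so the split between these genes is uncertain as well. *C4a* was above 0 in 11 stromal and 0 other cells, with at most 136 reads.

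*Cd55*, the only membrane protein among the members, was above 0 in 20 of 58 stromal cells (34.5%, interval 22.5% to 48.1%) and in 0 of 27 other cells. Its stromal reads ran from 0 to 7058 with a median of 0. All 20 positive cells held at least 75 reads, with a median of 782.5, and 19 held at least 100. A cell thus held either many reads of *Cd55* or none. Its near copy *Cd55b*, 93.7% identical over the aligned part of the longest transcripts, was not analysed here. Stromal cells had a mean log2(value + 1) of 3.48 ± 4.98 (SD, n = 58 cells).

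Levels of different genes were compared per length, as reads per kilobase of the longest annotated transcript and per 1000000 reads, with the median taken over the stromal cells above 0. *C3* stood highest with 814, followed by *C1s1* with 614, *Serping1* with 353 and *C1ra* with 220. *Cd55* had a level of 111 in the cells that held it, *C4b* 32.6 and *C1rb* 20.5. *C3*, *C1s1* and *C1ra* thus had higher levels per length than *C4b*, and *C1rb* a lower one where each gene was found. Over all 58 stromal cells the medians were 738 for *C3*, 450.1 for *C1s1*, 207 for *Serping1*, 179 for *C1ra*, 11.9 for *C1rb* and 0 for *C4b* and *Cd55*, so that *C1rb* then stood above *C4b* and *Cd55*. The order of neighbours is not firm, because the quartiles of this level over all 58 stromal cells were 352 to 1196 for *C3*, 117 to 846 for *C1s1*, 13.4 to 2714 for *Serping1* and 39.9 to 387 for *C1ra*, all of which overlap. Those of *C1rb*, 2.03 to 49.7, and *C4b*, 0 to 11.2, overlapped too.

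Counted per cell, stromal cells held a median of 4 of the 6 members (range, 1 to 6). At least 4 members were above 0 in 47 of 58 stromal cells (81.03%, interval 68.6% to 90.1%) and in 0 of 27 other cells. Without the cell of lowest *Dcn* it was 47 of 57 (82.5%). Of the other cells, 18 held no member and 9 held 1. At a level of 10 reads, 43 of 58 stromal cells held at least 4 members, and no other cell held any of them. At a level of 100 reads the share of stromal cells with at least 4 members fell to 55.2%.

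**Figure D3:**
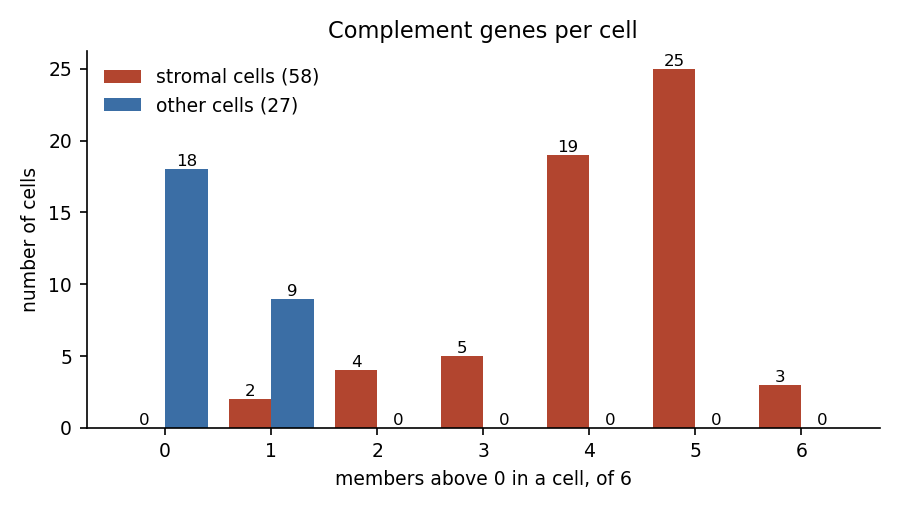
Number of cells (vertical) by the number of the 6 members above 0 in the cell (horizontal), for 58 stromal cells (red) and 27 other cells (blue). Stromal cells peak at 5 members with 25 cells, and all other cells lie at 0 or 1.

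Within stromal cells the members did not form a single block. Spearman's rho of log2(value + 1) over the 58 stromal cells ran from -0.25 to 0.56 in the 15 pairs of members, with a median of 0.16, and 4 pairs lay above 0.3. These values are descriptions over cells of 1 sample that share a protocol and, for several pairs, scaling factors. *C1ra* and *C1rb* had the highest value, 0.56, also on reads scaled to the cell total (0.56). *C1ra* and *C3* had 0.40, *C3* and *C4b* 0.40, and *Serping1* and *C3* 0.33, the last being 0.26 on reads scaled to the cell total. The C1r and C1s genes, whose proteins act in one complex, had a low rho of 0.12 for *C1ra* and *C1s1*. In 44 stromal cells both of these were above 0, in 7 only *C1ra*, in 6 only *C1s1* and in 1 neither.

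*C4b* and *Cd55* were each found in a minority of stromal cells. Both were above 0 in 4 stromal cells, 15 held only *C4b*, 16 only *Cd55* and 23 neither, with a rho of -0.25, and whether fewer cells held both than unrelated genes would give was not tested. Every one of the 19 cells with *C4b* also held *C1s1*, *Serping1* and *C3*, which were above 0 in 50, 52 and 55 of all 58 stromal cells. For *C1s1* and *C4b* the rho was 0.41, and for *C1s1* and *C3* it was 0.39. For *Cd55* it was -0.13 with *C1s1* and -0.08 with *C3*.

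The genes whose pattern was most like that of each member were sought among the 5382 genes above 0 in at least 10 stromal cells, by Spearman's rho of log2(value + 1) over 58 stromal cells. Besides *C1rb*, *C1ra* was closest to *Tnfaip2*, a gene known to be induced by tumour necrosis factor (0.45, 15 cells with both), and *Atg2a*, of autophagy (0.43, 11 cells), whose place *Tmed9*, a gene of vesicle transport, took on reads scaled to the cell total (0.46, 38 cells). *C1rb* was closest, after *C1ra*, to the cytokine gene *Il6* (0.55, 19 cells with both) and the matrix gene *Ecm1* (0.54, 44 cells). The 19 cells are every stromal cell with *Il6*, beside 47 of all 58 stromal cells with *C1rb*. The nearest genes of the C1r pair were thus each other. *C1s1* was closest to its near copy *C1s2* (0.64, 22 cells), *Cp*, which encodes ceruloplasmin (0.47, 16 cells), and *Ppp2r3a*, a phosphatase subunit (0.43, 22 cells), whose place the pseudogene *Rpl21-ps11* took on reads scaled to the cell total (0.45, 44 cells). *Serping1* was closest to the membrane protein gene *Itm2b* (0.65, 52 cells) and the predicted genes *Gm6900* (0.56) and *Gm10157* (0.55). As with *Il6*, every stromal cell with *Tnfaip2* or *Atg2a* held *C1ra*, and every one with *C1s2*, *Cp* or *Ppp2r3a* held *C1s1*. *C1ra* was above 0 in 51 and *C1s1* in 50 of all 58 stromal cells.

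*C3* was closest to *Nfkbiz*, which encodes an inhibitor-like nuclear partner of NF-kB (0.56, 35 cells), *Socs3*, a feedback inhibitor of cytokine signalling (0.50, 40 cells), and *S100a1*, a calcium-binding protein gene (0.49, 23 cells). On reads scaled to the cell total, *Cfb*, the alternative pathway protease, took the second place for *C3* (0.54, 18 cells with both). The 18 cells are every stromal cell with *Cfb*, beside 55 of all 58 stromal cells with *C3*. Every stromal cell with *Nfkbiz* or *S100a1* held *C3* too. *C4b* was closest to its near copy *C4a* (0.66, 10 cells), *E130201H02Rik* (0.53, 14 cells) and *Socs3* (0.48, 17 cells). *Cd55* was closest to the phospholipase gene *Pla1a* (0.57, 11 cells), *Pi16*, a marker of interstitial progenitors of fat (0.55, 18 cells), and *Rab32*, a small GTPase gene (0.54, 10 cells). In sparse counts such values are descriptions only. The near copies *C1rb*, *C1s2* and *C4a* may share reads with the member they are closest to.

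As CD55 and PI16 are both known markers of the same progenitors, stromal cells were divided by *Pi16*, with 45 above 0 and 13 at 0. *Cd55* was above 0 in 18 of the 45 (40%, interval 25.7% to 55.7%) and in 2 of the 13 (15.4%, interval 1.92% to 45.4%). *C4b* lay the other way, in 13 of 45 (28.9%, interval 16.4% to 44.3%) and 6 of 13 (46.2%, interval 19.2% to 74.9%). The intervals overlap for both genes. Of the 6 members, 0 differed by at least 30 points in either direction, compared with 1.12% of 10739 genes higher and 1.56% lower in cells with *Pi16*. With *Pi16* counted from a value of 100, the difference in *Cd55* was 35.6 points (18 of 39 against 2 of 19 cells), and from 10 recovered reads it was 30.4 points. At both of these levels the intervals of the *Cd55* shares still overlap. What percent of all genes differed by at least 30 points at these levels was not tested, so these differences have no background beside them. The median number of genes was 2812 in cells with *Pi16* and 2980 in those without.

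The other members were similarly frequent on both sides of *Pi16*. The differences in share were 4.27 points for *C1ra*, 5.30 for *C1rb*, -3.42 for *Serping1* and -6.67 for *C3* (cells with *Pi16* minus cells without). The mean log2(value + 1) of *C3* was 11.64 in cells with *Pi16* and 13.76 in those without, and the median reads were 10380 and 17198. With *Pi16* counted from a value of 100, the *C3* means were 11.90 and 12.55, so the difference was smaller.

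**Figure D4:**
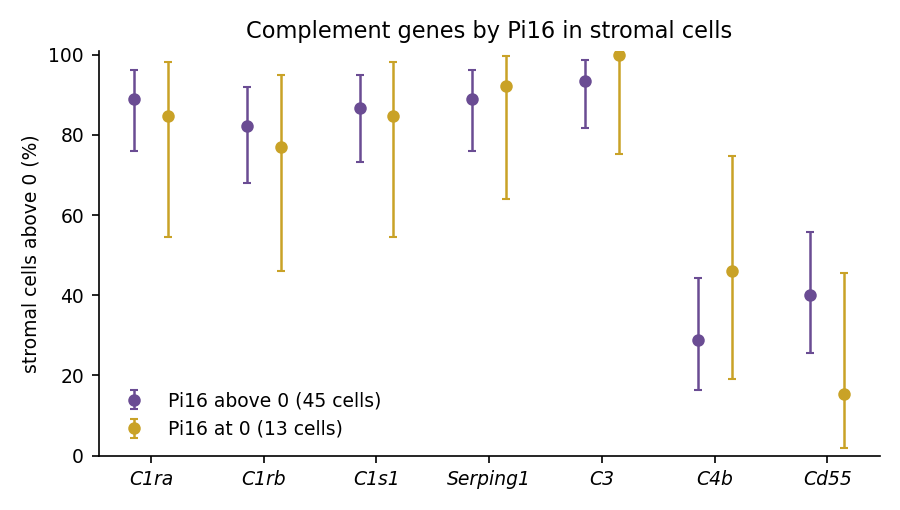
Percent of stromal cells above 0 for the 6 members and *C1s1*, in 45 cells with *Pi16* above 0 (purple) and 13 cells with *Pi16* at 0 (yellow), with exact 95% intervals that cover counting error only. *Cd55* is higher on the left (40% against 15.4%) and *C4b* on the right (28.9% against 46.2%), with overlapping intervals.

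Other divisions of the stromal cells gave *Cd55* the same direction. It was above 0 in 12 of 25 cells with *Dpp4*, another interstitial progenitor marker, and in 8 of 33 without. For the surface antigen *Cd34* the numbers were 16 of 38 and 4 of 20, and for the receptor gene *Pdgfrb* 9 of 19 and 11 of 39. For *Wt1*, a transcription factor gene among the mesothelial markers, the numbers were 9 of 20 and 11 of 38. In each of these divisions the intervals of the shares overlap. Cells with at least the median number of genes also held *Cd55* more often (14 of 29 against 6 of 29). The median number of genes was 3007 with *Dpp4* and 2765 without, 2936.5 with *Cd34* and 2603.5 without, 2938 with *Wt1* and 2776.5 without, and 2812 with *Pdgfrb* and 2826 without. The part of gene number in these differences was not tested. *C4b* differed little by *Dpp4* (8 of 25 with and 11 of 33 without), *Cd34* (12 of 38 and 7 of 20) or *Wt1* (6 of 20 and 13 of 38), and was above 0 in 5 of 19 cells with *Pdgfrb* and 14 of 39 without. *Serping1* had median reads of 3280.5 in cells with *Cd34* and 107 in those without, and of 157 with *Pdgfrb* and 1495 without. With and without *Dpp4* they were 3971 and 229, and with and without *Wt1* 106 and 1481.5. By *Pi16* above 0 they were 1050 and 894, from a *Pi16* value of 100 they were 1468 and 440, and from 10 recovered reads 905 and 8291.5. The direction by *Pi16* thus changed with the level chosen.

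Further complement genes were taken from lists of 53 genes by pathway, of which 18 had a row. Of these, 5 were at least 30 points more often above 0 in stromal cells and 1 in other cells, with a median difference of 13.9 points, beside 13.9% and 0.592% of all genes tested. The classical and alternative pathway enzymes included, besides *C1s1*, *C1s2* in 22 stromal and 0 other cells and *Cfb* in 18 and 0, both of which passed. *C2*, the other substrate of C1s, was above 0 in 15 stromal and 3 other cells and did not pass, nor did *C4a* or *C1rl* (3 and 0). The C1q genes *C1qa*, *C1qb* and *C1qc*, as well as *Cfd* and *Cfp*, were not analysed here. Of the terminal pathway, *C7* was above 0 in 11 stromal and 0 other cells.

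Among the regulators and receptors, *Thbd*, which encodes thrombomodulin, was above 0 in 45 stromal and 6 other cells, and the scavenger receptor gene *Colec12* in 33 and 3, and both passed. *Clu* (15 and 4 cells), *Cfhr2* (15 and 0) and the receptor-like *Cr1l* (22 and 10) did not. The membrane regulators *Cd59a* and *Cd59b* were each above 0 in 4 stromal and 4 other cells, and *Cd46* in 1 and 1. *C1qbp* was above 0 in 14 stromal and 3 other cells. Only *Cd93*, an endothelial surface receptor once described as a C1q receptor, was at least 30 points more frequent in other cells (2 stromal and 16 other cells).

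**Figure D5:**
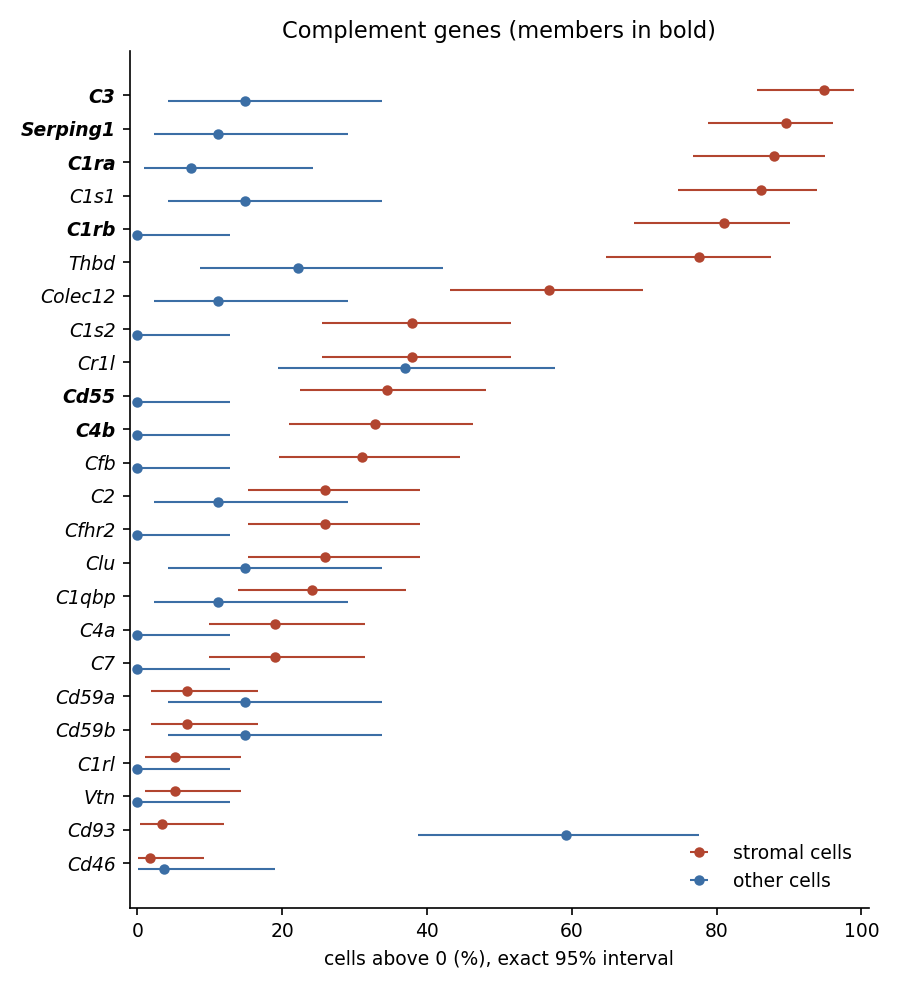
Percent of stromal (red) and other (blue) cells above 0 (horizontal) for the members, *C1s1* and the other complement genes described, with members in bold and exact 95% intervals that cover counting error only. *C3* is at the top with 94.8% of stromal cells, and *Cd93* is higher in other cells (59.3%) than in stromal cells (3.45%).

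Gene lists related to the members were counted in the same way, beside the 13.9% of all genes tested that were at least 30 points more frequent in stromal cells and the 0.592% in other cells. Of 15 acute phase and NF-kB response genes with a row, 6 were at least 30 points more often above 0 in stromal cells, among them *Il6st* (48 stromal and 10 other cells), *Nfkbia* (40 and 8) and *Il6* (19 and 0), whereas *Junb* (57 and 25) and *Cebpb* (48 and 23) were frequent in both. Of 16 interferon response genes, 0 passed, with *Ifitm3* in 56 stromal and 23 other cells and *Irf1* in 24 and 9. Of 7 serpin and protease partners, 3 passed: *Serpinh1* (55 and 12), *Plat* (43 and 5) and *Lrp1* (50 and 0), which encodes a receptor that clears protease and inhibitor complexes. Of 10 interstitial progenitor markers, 5 passed, led by *Mfap5* (57 and 10), *Cd248* (50 and 4) and *Pi16* (45 and 7). *Mfap5* is also 1 of the 9 stromal markers. Of those that did not pass, *Ly6c1* had a smaller share in stromal (42 cells, 72.4%) than in other cells (23 cells, 85.2%). *Anxa3* was frequent in both (41 and 17). Of 10 committed preadipocyte and adventitial markers, 3 passed in stromal cells, *Mgp* (42 and 6), *Col15a1* (30 and 1) and *Gdf10* (19 and 0), and 2 in other cells, *Pparg* (2 and 11) and *Sparcl1* (19 and 18). *Col4a1* (39 and 15) did not pass.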

How the data were processed

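Single cells were sequenced as 1 library each. The authors aligned reads to mm9 (HISAT2 2.0.5, SAMtools 1.4 and StringTie 1.3.3 in the submitters' processing notes) and normalized with scater. The unit of the deposited values is a signal of normalized read counts for 85 cells and 16069 genes, and the counting program is not given in the sources used here. All columns were used. Dividing by the factors found gave whole reads for 144196 of 144196 scaled values, within the larger of 1e-06 reads and a relative 2e-09, while 76 values had no factor and were left out. This method was devised after the values were seen. A factor was accepted only where it made values whole, so the count of whole reads does not test the method. A complement regulator is not reported here. Detection was a value above 0. Genes tested were above 0 in at least 3 cells. Levels are log2(value + 1). Scripts were tested on simulated data. Where 0 cells were found, the limit is 3 cells of the total. No doublet caller was run on these sorted single-cell libraries. Members and lists were chosen with earlier results of these data known. The genes named are the members, the complement genes of the lists with a row, the 3 genes nearest to each member by rho and up to 3 genes of each related list in most stromal cells. *Nfkbia*, *Il6*, *Gdf10*, *Pparg*, *Sparcl1*, *Ly6c1* and *Anxa3* were added after their values were seen. Alternatives were other detection levels, stromal rules, scales, backgrounds, divisions and thinned reads. Python 3.11.15, numpy 2.4.6, pandas 2.3.3, scipy 1.17.1, Biopython 1.88 and matplotlib 3.10.9 were used.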

Additional observations from a re-analysis of the deposited data

How the results depend on the processing

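Across 21 settings, 294 values were classed as the same, 26 as moved and 4 as reversed. Values classed as the same could still change in size. With 10 in place of 1 added before the log2, the stromal minus other difference of *C1rb* was 3.17, compared with 5.69. The share of stromal cells with at least 4 of 6 members, 81.03%, was 56.9% when a value of 100 counted as detected and 55.2% at 100 recovered reads, since fewer cells reach a higher level. The count of members at least 30 points more frequent in stromal cells was 6, and it was 5 at a value of 100 (7.86% of all genes), 5 with stromal cells taken by 5 of 9 other markers (14.3%) and 4 at 50 points (4.23%). Of genes above 0 in at least 10 cells, 26.1% passed at 30 points. The count at least 4-fold higher was 6 in the 8 alternatives that recomputed it, beside 44.6% to 67.6% of all genes, and beside 35.8% of genes above 0 in at least 10 cells. The reversed values are differences in share by *Pi16*: with *Dpp4* in its place they were -1.82 points for *C1rb*, -10.9 for *C1s1* and 4.12 for *Serping1*, and with *Pi16* from 10 reads -1.79 for *C1s1*. The cause was not tested. The alternatives on recovered reads and the one without the cell of lowest *Dcn* were chosen after seeing the data. No paired analysis was possible because the series has 1 group and no test was made.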
